A study of Caenorhabditis elegans with 4 samples.

Results

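HPL-2 is one of the heterochromatin protein 1 (HP1) proteins of *Caenorhabditis elegans*. Its chromodomain binds methylated histone H3, above all H3K9 methylation, and its chromoshadow domain lets HP1 proteins pair and recruit partners. In worms HPL-2 is known for keeping germline genes off in somatic cells and for roles in vulval development and in silencing of repeated DNA. *C. elegans* chromosomes are holocentric and have no pericentric heterochromatin block. H3K9 methylation and repeats lie mostly on the chromosome arms, and the arms of autosomes are tethered to the nuclear envelope.

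The regions described here are the HPL-2 peaks on the outer part of the left arm of chromosome IV. They are all peaks of the series-level list whose midpoint lies after position 300000 and no further than 4500000 on chromosome IV (WormBase WS220), and no score or width was used to choose them. There were 1938 such peaks, of 23530 in the whole list. The stretch is 4.2 Mb long, which is 4.19% of the genome length spanned by the lists, and it held 8.24% of the peaks of the genome and 48.1% of those of chromosome IV. At the left border, the last peak outside lay at 296018 to 296217 (score 9.56) and the first inside at 305405 to 305574 (score 4.25). At the right border, the last peak inside lay at 4493477 to 4493624 (score 6.93) and the first outside at 4505846 to 4506042 (score 8.39).

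Peaks came from chromatin immunoprecipitation and sequencing (ChIP-seq) of wild-type worms of the N2 strain at the L3 larval stage, in a population of males and hermaphrodites grown at 20 °C. The series has 2 libraries precipitated with SDQ2340, a rabbit polyclonal antibody against HPL-2, and 2 input libraries that were not precipitated. A peak list was deposited for each ChIP library and for the series as a whole, and the input libraries were not analysed here. Chromatin came from whole larvae, so these peaks are sums over all cell types, and a peak present in few cells cannot be told apart from a weak peak present in many. These lists give no read depth, and each peak carries a score whose scale is not stated. Whether separate cultures gave the 2 ChIP libraries is not stated, and their spread may be technical.

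The stretch was rich in HPL-2 peaks in every list. The series-level list had 461.4 peaks per Mb in the stretch and 224.7 in the rest of the genome (2.05-fold, log2 ratio 1.04). Replicate 1 had 409.5 peaks per Mb in the stretch and 195.8 in the rest of the genome. Replicate 2 had 358.1 peaks per Mb in the stretch and 156.0 in the rest of the genome. The log2 ratio of the 2 replicate lists averaged 1.13 ± 0.095 (SD, n = 2). This SD covers the difference between the 2 lists over the same stretch and does not measure how regions of the genome vary. The stretch also had more of its bases in peaks. The share was 21.3% in the stretch and 9.32% in the rest of the genome in the series-level list. In replicate 1 it was 18.6% in the stretch and 8.04% elsewhere, and in replicate 2 it was 12.2% in the stretch and 5.13% elsewhere. Against the remainder of chromosome IV the gap was wider, with 461.4 peaks per Mb in the stretch and 157.6 in the remainder (2.93-fold, and 2.98-fold and 3.70-fold in replicates 1 and 2). With 2 replicate lists, a two-sided exact sign-flip permutation test cannot give p below 0.5, so values are given without a test.

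Stretches of equal length placed in the same way on other chromosome arms gave a frame for these values. The matching stretch at the right end of chromosome IV, from 12993794 to 17193793, was less dense in each list. It held 214.5 series-level peaks per Mb, and the ratio of left to right stretch was 2.15-fold in that list, 2.16-fold in replicate 1 and 2.32-fold in replicate 2. The left stretch of chromosome II, between the same positions, had 304.5 peaks per Mb, and the ratio of IV to II was 1.52-fold for series-level peaks, 1.5-fold in replicate 1 and 1.40-fold in replicate 2. The left stretch of chromosome III was close to that of chromosome IV. The 2 stretches had 461.4 peaks per Mb on IV and 452.4 on III, and the log2 ratio of IV to III was -0.04 in replicate 1 and 0.01 in replicate 2. In bases covered the IV stretch was slightly below that of III in every list, at 21.3% on IV and 21.7% on III in the series-level list, and at 12.2% on IV and 14.5% on III in replicate 2. The left stretch of chromosome I was also close, with 461.4 peaks per Mb on IV and 475.0 on I in the series-level list, and with 358.1 on IV and 347.1 on I in replicate 2. The same stretch had 243.6 peaks per Mb on chromosome V and 130.5 on X. The density on IV was therefore shared with the left arms of chromosomes I and III.

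**Figure D1:**
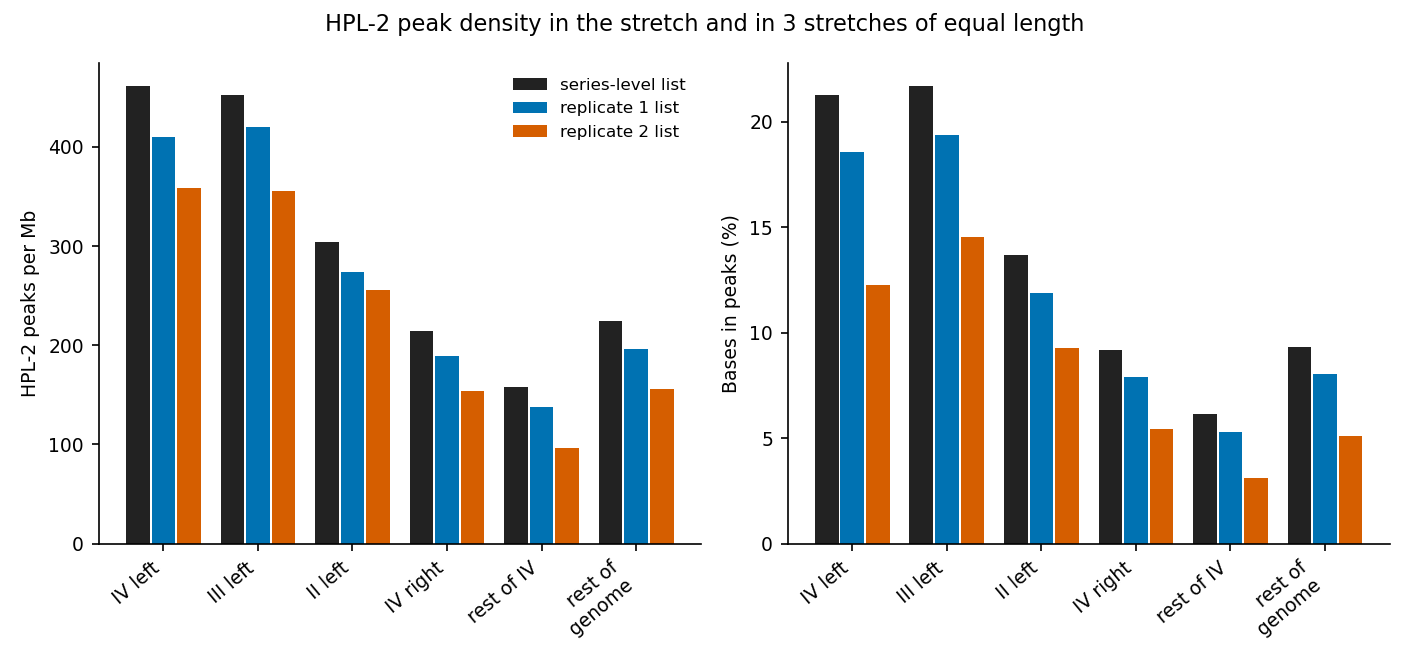
Peaks per Mb (left panel) and percent of bases in peaks (right panel) for the chromosome IV left stretch, for stretches of equal length on III left, II left and IV right, for the rest of chromosome IV and for the rest of the genome, with 1 bar per peak list. In series-level peaks per Mb, the IV left stretch (461.4) was near III left (452.4) and above IV right (214.5).

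Peak density was not even along the stretch. In windows of 100 kb the series-level list had between 4 and 83 peaks, with a median of 45.5, against a median of 18 over all full windows of the genome. Of the 42 windows of the stretch, 39 were above that genome median, in the series-level list and in each replicate list. The 3 windows with most peaks lay at 1700001 to 1800000 (83 peaks), 800001 to 900000 (78 peaks) and 1900001 to 2000000 (78 peaks). The first of these had 74 peaks in replicate 1 and 47 in replicate 2. The window from 800001 had 72 in replicate 1 and 49 in replicate 2, and that from 1900001 had 74 and 63 in replicates 1 and 2. Bases in peaks ranked the windows in another order. The window from 2300001 to 2400000 had the largest covered share, with 43.1% of its bases in only 58 peaks, while the window with 83 peaks had 35.7% covered. The 3 windows with fewest peaks lay at 3900001 to 4000000 (4 peaks, with 2 in replicate 1 and 6 in replicate 2), 500001 to 600000 (13 peaks, with 14 in each replicate) and 700001 to 800000 (16 peaks, with 12 in replicate 1 and 19 in replicate 2).

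**Figure D2:**
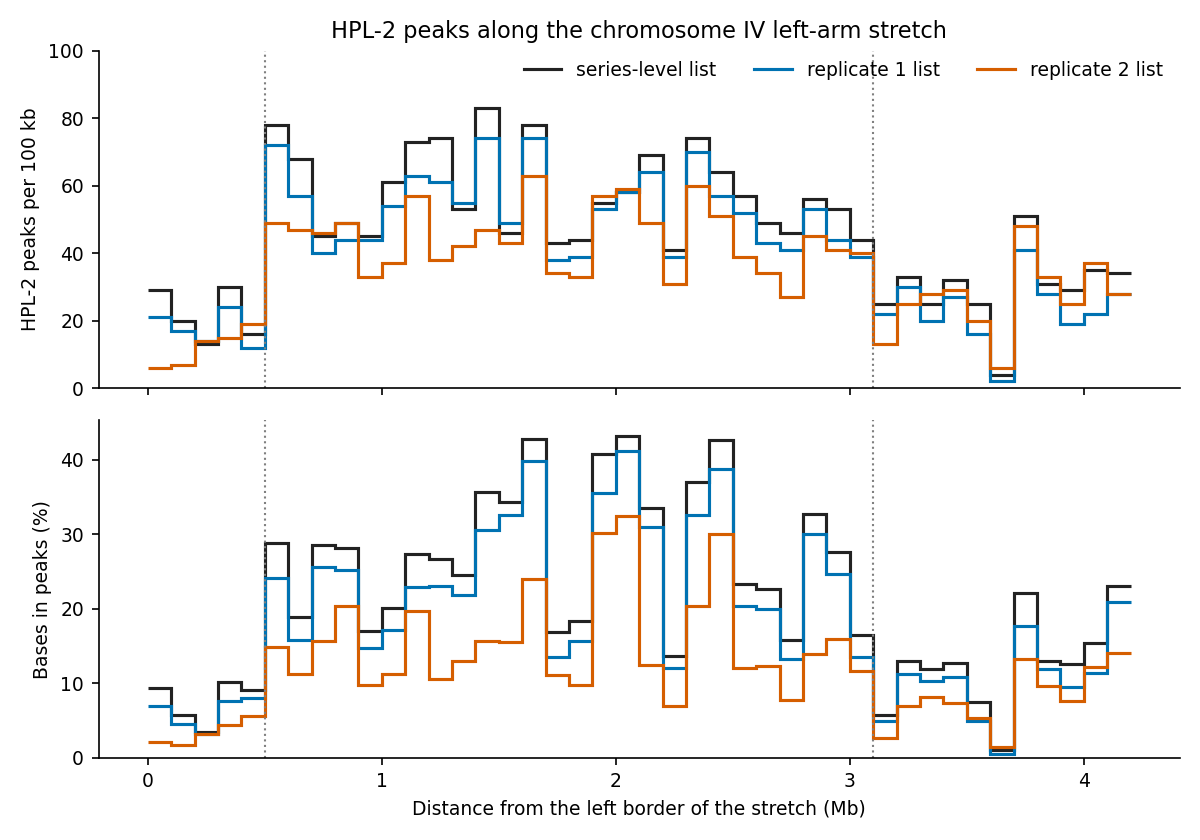
HPL-2 peaks per 100 kb window (top) and percent of window bases in peaks (bottom) against distance from the left border of the stretch in Mb, with 1 line per peak list and dotted lines at 0.5 and 3.1 Mb, borders set after the counts were seen. Series-level counts ran from 13 to 30 left of the first dotted line, from 41 to 83 between the lines, and from 4 to 51 right of the second.

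Most of the dense windows lay in a block of 2.6 Mb, with a lower density on either side. Its borders, at 800001 and 3400001, were set after the window counts were seen, so the following values describe it and carry no test. The middle block held 1506 of the 1938 peaks, at 579.2 peaks per Mb and 27.6% of bases in peaks. Each of its 26 windows had at least 41 series-level peaks. The outer 0.5 Mb, toward the chromosome end, had 216.0 peaks per Mb and 7.56% of bases in peaks, and none of its 5 windows had more than 30 peaks. The inner 1.1 Mb, toward the chromosome centre, had 294.5 peaks per Mb and 12.6% of bases in peaks, and its 11 windows had a median of 31. In series-level and replicate 1 counts, a single window of the inner zone reached the lowest count of the block. It ran from 4000001 to 4100000, with 51 series-level peaks, 41 in replicate 1 and 48 in replicate 2. In replicate 2 the lowest count of the block was 27, and further inner windows reached it, such as that from 4300001 to 4400000 with 37. In series-level bases covered, the window from 4400001 to 4500000 (23.0%) was above that from 4000001 (22.2%). The step at the left border was abrupt, with 16 peaks in the window before it and 78 in the window after it, and it stood in both replicates (12 before and 72 after in replicate 1, 19 before and 49 after in replicate 2). The step at 3400001 was smaller in the series-level list and in replicate 1, but not in fold in replicate 2, with 44 series-level peaks in the window before it and 25 in the window after it (39 before and 22 after in replicate 1, 40 before and 13 after in replicate 2). Peak density was thus highest inside the arm and lower toward both ends of the stretch. It was also low outside the stretch, at 236.7 peaks per Mb in the outermost 0.3 Mb of the chromosome and 142.7 in the 1.1 Mb that followed the stretch.

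The replicates differed in how they divided their peaks among these zones. Replicate 2 had fewer peaks than replicate 1 in the outer zone (61 in replicate 2 and 88 in replicate 1, a ratio of 0.693) and in the middle block (1151 in replicate 2 and 1377 in replicate 1, a ratio of 0.836). In the inner zone it had more, with 292 in replicate 2 and 255 in replicate 1, a ratio of 1.15. Over the whole genome the ratio was 0.803. Replicate 2 exceeded replicate 1 in 8 of 11 windows of the inner zone and in 5 of 26 windows of the middle block. In bases the ratio was 0.776 in the inner zone and 0.643 in the middle block, so replicate 2 peaks were more numerous in the inner zone and still covered less of it. The excess of the middle block over the inner zone consequently depended on the list, at 1.97-fold in the series-level list, 2.28-fold in replicate 1 and 1.67-fold in replicate 2. The excess over the outer zone was 2.68-fold in the series-level list, 3.01-fold in replicate 1 and 3.63-fold in replicate 2. The outermost 2 windows accounted for most of the shortfall of replicate 2 there. In the first window, up to 400000, it had 6 peaks and replicate 1 had 21, and from 400001 to 500000 it had 7 and replicate 1 had 17.

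HPL-2 peaks of the stretch stood close together. Of the 1938 peaks, 1660 (85.7%, Wilson 95% interval 84.0 to 87.1%) lay 1 kb or less from the next peak on either side, against 73.1% of all series-level peaks. A denser list gives shorter gaps by number alone, and neighbouring peaks are not independent, so the interval is too narrow and covers counting error only. The median gap between neighbouring peaks was 484 bp in the stretch and 847 bp in the rest of the genome. In replicate 1 it was 536 bp in the stretch and 929 bp elsewhere, and in replicate 2 it was 805 bp in the stretch and 1267 bp elsewhere. Short gaps were common, and 30.6% of gaps in the stretch were 200 bp or less, against 21.6% in the rest of the genome. The median gap was 407 bp in the middle block, 859 bp in the inner zone and 1204 bp in the outer zone.

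Joined across gaps of 1 kb or less, the members formed 668 domains in the stretch. Of these, 278 held a single peak, 277 held 2 to 4 peaks, 86 held 5 to 9 peaks and 27 held 10 or more. Domains of 5 or more peaks contained 942 peaks, or 48.6% of the members (interval 46.4 to 50.8%), against 37.1% of all series-level peaks. Domains of 5 kb or more numbered 67 and contained 659 peaks, or 34.0% of the members, against 23.9% of all series-level peaks. They held 50.7% of the bases in peaks, and their combined length was 15.0% of the stretch. Of the 67, the middle block had 56, the inner zone 10 and the outer zone 1. This split follows in part from borders drawn around the dense windows. The distance between the centres of neighbouring domains of 5 kb or more had a median of 38.4 kb and ranged from 6.94 to 264.0 kb. Peaks filled a median of 71.7% of the length of these domains. Replicate 1 gave 60 domains of 5 kb or more when joined in the same way, and replicate 2 gave 28.

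All 67 wide domains contained peaks of both replicates. Any overlap counted, and the series-level list overlapped 98.9% of replicate 1 peaks and 88.0% of replicate 2 peaks of the stretch. A domain this wide would rarely lack a peak of either replicate, so this count says little about support. Replicate 1 peaks covered a median of 66.5% of a domain, with a range from 31.9 to 95.4%. Replicate 2 peaks covered a median of 37.6%, with a range from 9.90 to 88.2%. The replicate 2 list covered fewer bases in general, with a ratio to replicate 1 of 0.640 over the whole genome and 0.659 in the stretch. Within the wide domains, replicate 1 likewise covered more than replicate 2 in 66 of the 67. The exception, chosen after its values were seen, was the domain from 4316067 to 4321306 (5.24 kb) in the inner zone, with 67.1% in replicate 2 and 62.6% in replicate 1. The domain least covered by replicate 2 ran from 2502698 to 2509983 (7.29 kb), with 9.90% in replicate 2 and 53.3% in replicate 1.

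Of the 10 widest domains, 9 lay in the middle block, which held 1506 of the 1938 members. The block was drawn around dense windows, so wide domains fall there in part by construction. The widest, from 2880611 to 2908940, spanned 28.3 kb with 35 series-level peaks, of which 18 were found in both replicates. It was a loosely filled domain, with 60.8% of its length in peaks, a median peak width of 286 bp and a median score of 12.2. Replicate 1 covered 52.0% of it with 33 peaks, and replicate 2 covered 22.8% with 23 peaks. Replicate 2 peaks were fewer right of its centre, with 16 to the left and 7 to the right, while replicate 1 had 16 to the left and 17 to the right. When the joining gap was 500 bp this domain broke up, and the widest domain was the one from 2215847 to 2234665, with a width of 18.8 kb at either setting. When the gap was 2 kb it grew to 42.2 kb, from 2878167 to 2920340, with 47 peaks.

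The next 3 domains were covered to more even extents by the replicates. The domain from 1182415 to 1202605 (20.2 kb, 21 peaks) had a median score of 35.6, and replicate 1 covered 68.2% and replicate 2 54.7% of it. The domain from 2215847 to 2234665 (18.8 kb, 17 peaks) was filled to 87.6%. The replicates covered a like total of it, at 72.7% in replicate 1 and 72.2% in replicate 2. The covered bases were not all the same, and 12 of its 17 peaks were found in both. The domain from 2763032 to 2781667 (18.6 kb, 23 peaks) contained a peak with the highest series-level score, 102.28, at 2764845 to 2765610. The highest-scoring replicate 2 peak of the stretch overlapped that same member, at 2764889 to 2765777 (score 276.21).

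The other wide domains differed most in replicate 2. The domain from 2438823 to 2455446 (16.6 kb, 22 peaks) was covered to 64.9% by replicate 1 and to 13.3% by replicate 2, and only 5 of its 22 peaks were found in both. Domains from 1938886 to 1955485 (16.6 kb, 19 peaks) and from 1958974 to 1973673 (14.7 kb, 15 peaks) lay in the same 100 kb window, which had 42.8% of its bases in peaks. Replicate 2 covered 39.1% of the first and 46.0% of the second, and replicate 1 covered 68.3% and 70.1%. The domain from 2704078 to 2719860 (15.8 kb) was built differently from the rest. It had only 8 peaks, which filled 92.5% of its length, and 2 of them were wider than 4 kb, at 2704602 to 2709071 (score 101.9) and 2712004 to 2716631. Replicate 2 covered 75.7% of it and had its widest peak of the stretch there, from 2712029 to 2716615 (4587 bp, score 135.83). The domain from 2383093 to 2398693 (15.6 kb, 17 peaks) was covered to 77.5% by replicate 1 and 69.3% by replicate 2. The domain in the inner zone, from 4394072 to 4409095 (15.0 kb, 16 peaks), was covered to 62.4% by replicate 1 and 39.1% by replicate 2.

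**Figure D3:**
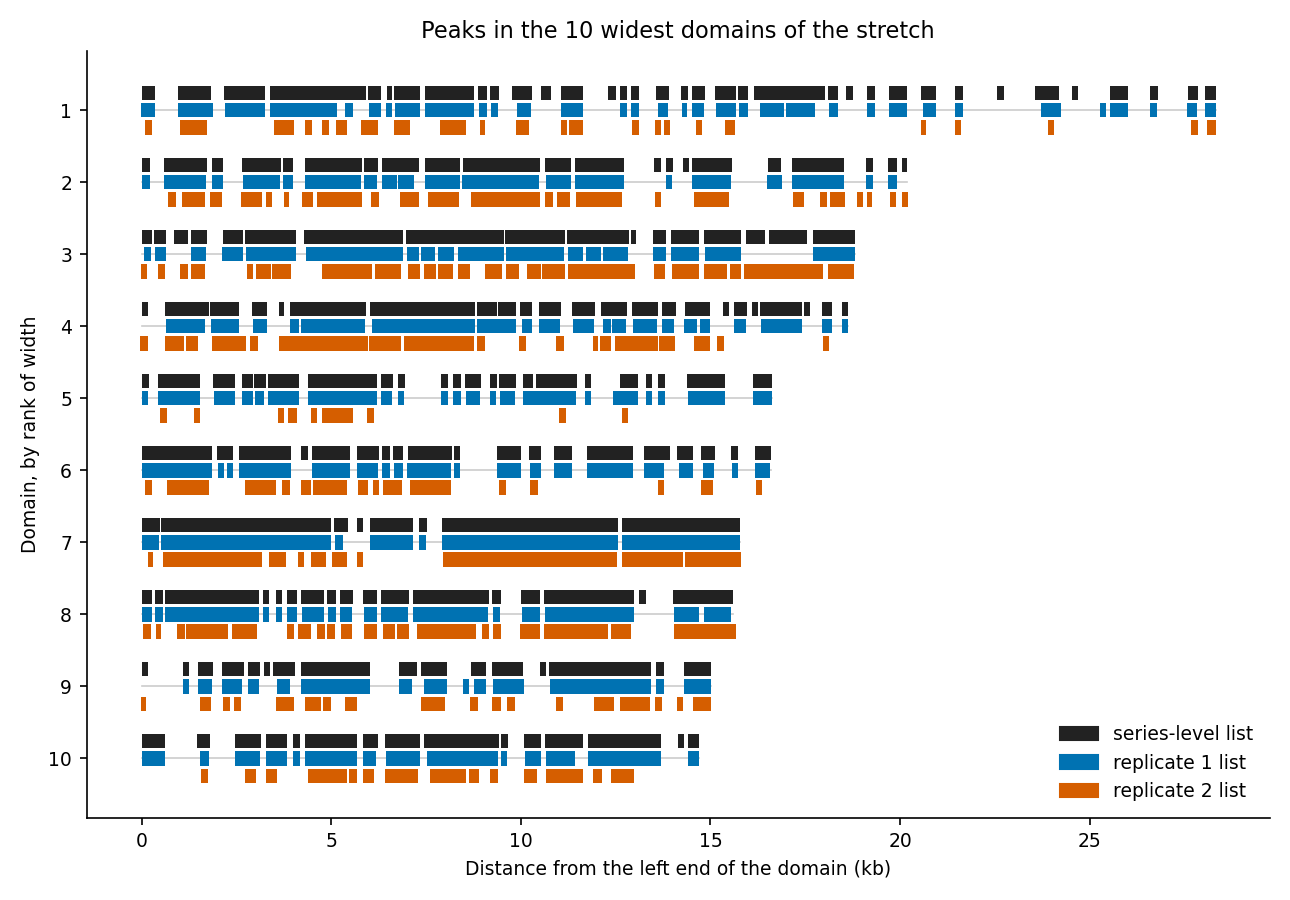
Peaks of the series-level, replicate 1 and replicate 2 lists (blocks, drawn to scale) in the 10 widest domains of the stretch, ranked by width from the top, against distance in kb from the left end of each domain. The third domain was covered to about the same total by replicates 1 and 2 (72.7 and 72.2%), whereas replicate 2 peaks covered 13.3% of the fifth.

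Most peaks in the stretch were narrow, and a minority of wide ones held much of the covered length. The median width was 270 bp in the stretch and 258 bp in the rest of the genome in the series-level list. In replicate 1 it was 272 bp in the stretch and 257 bp elsewhere, and in replicate 2 it was 229 bp in the stretch and 231 bp elsewhere. The 2 replicate lists thus differed from each other by more than the stretch differed from the rest. The lower quartile of width was 196 bp and the upper quartile 465 bp in the series-level list. Peaks of 1 kb or more numbered 172, or 8.88% of the members (interval 7.69 to 10.2%), against 6.75% of all series-level peaks. These 172 peaks held 36.1% of the bases in members. Of the members, 5 were 5 kb or wider, against 47 of 21592 series-level peaks in the rest of the genome.

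**Figure D4:**
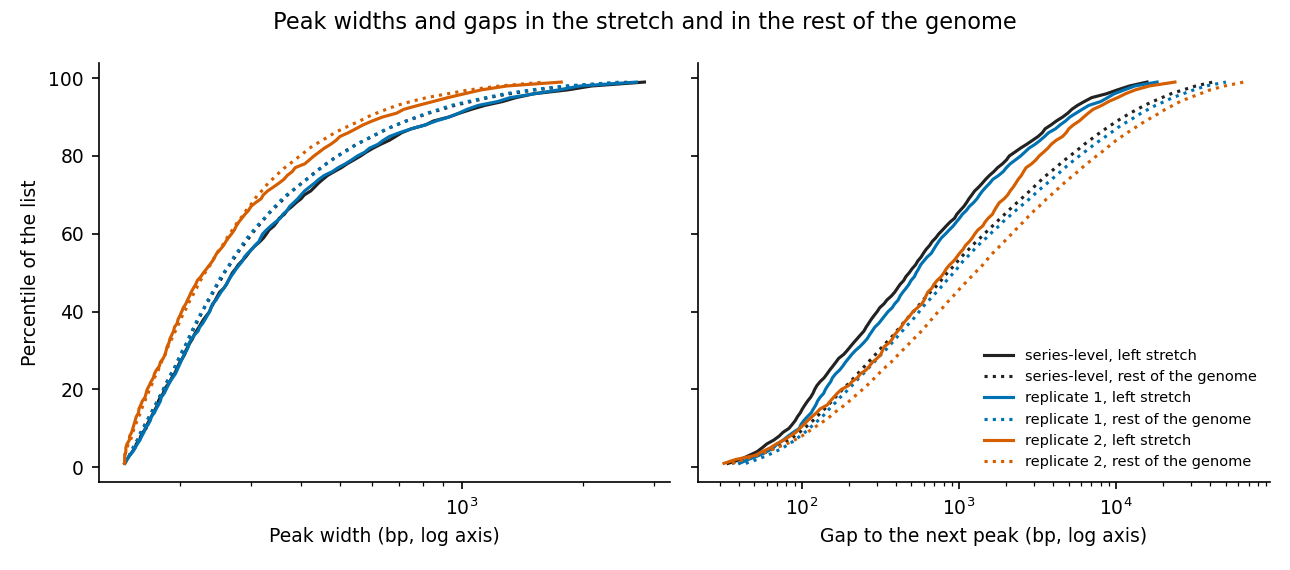
Percentiles of peak width (left, bp on a log axis) and of the gap to the next peak (right, bp on a log axis) in the stretch (solid lines) and in the rest of the genome (dotted lines), from the 1st to the 99th percentile, with 1 colour per peak list. Width curves of the stretch and of the rest nearly coincide at the median (270 and 258 bp in the series-level list), while gap curves of the stretch lie to the left (484 and 847 bp).

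The widest single peak of the stretch lay in the inner zone, from 4467711 to 4476559 (8849 bp, score 98.55). Replicate 1 had it as a single peak of 8711 bp, and replicate 2 as 6 peaks that covered 78.5% of it. The next, from 2306442 to 2314679 (8238 bp, score 96.5), was again a single replicate 1 peak (8182 bp) and 5 replicate 2 peaks, which covered 89.0%. The peak from 2992830 to 2999504 (6675 bp, score 53.2) matched 2 peaks of replicate 1 and 10 of replicate 2. These first 3 were covered by replicate 2 over most of their length, in pieces. The peak from 1847992 to 1853418 (5427 bp, score 66.0) and the peak from 1063558 to 1068769 (5212 bp, score 86.09) were covered to 98.1% and 100% by replicate 1, but to 36.2% and 30.6% by replicate 2.

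Division into pieces was the rule in replicate 2. Among the 161 members of 1 kb or more found in both replicates, 108 (67.1%) were 2 or more peaks in replicate 2, and 43 (26.7%) were 2 or more in replicate 1. Replicate 2 covered a median of 69.7% of these members, and replicate 1 a median of 98.0%. Among the 43 members of 2 kb or more, 39 were divided in replicate 2 and 18 in replicate 1. Wide HPL-2 regions of the stretch were thus called in pieces more often in replicate 2 than in replicate 1. The regions were those of the series-level list, which replicate 1 nearly filled. Pieces were not counted in the rest of the genome. Wide peaks were also fewer in replicate 2 there, with 3.34% of its peaks at 1 kb or more and 6.34% of those of replicate 1.

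Median scores in the stretch were slightly higher than elsewhere in each list. The stretch held 6 of the 100 series-level peaks that shared the highest score of 102.28, a count near its 8.24% of all series-level peaks. Of its 1938 peaks, 1043 (53.8%) scored at or above the median of the whole list, which 50% of all series-level peaks did. The top score quartile of that list held 28.4% of the members and 24.7% of the peaks in the rest of the genome. The median score was 14.8 in the stretch and 13.0 in the rest of the genome. Replicate 1 had a median of 11.5 in the stretch and 10.6 elsewhere, and replicate 2 had 10.6 in the stretch and 10.2 elsewhere. The mean score was also higher in the series-level list (23.4 in the stretch and 21.5 elsewhere) and in replicate 1 (18.3 and 17.1). In replicate 2 the mean was lower in the stretch, at 19.8, than elsewhere, at 20.4. Ranked by score and then by width, the first 5 peaks found in both replicates lay at 2602504 to 2605172 (2669 bp), 2254918 to 2257345 (2428 bp), 1439765 to 1441366 (1602 bp), 1344823 to 1346340 (1518 bp) and 3350310 to 3351685 (1376 bp). All 5 had the score of 102.28, and all lay in the middle block, which held 1506 of the 1938 members. Each was a single peak in replicate 1, with scores there from 73.83 to 82.46. In replicate 2 each was 1 to 3 peaks, with highest scores from 103.15 to 208.03. The last of them contained the highest-scoring replicate 1 peak of the stretch, from 3350326 to 3351669.

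Members found in both replicates were the largest of 4 classes of support. Of the 1938 peaks, 945 (48.8%, interval 46.5 to 51.0%) overlapped a peak of each replicate list by at least 1 bp, against 43.5% of all series-level peaks. Another 677 (34.9%) were found in replicate 1 only, against 39.1% of all. Those found in replicate 2 only numbered 144 (7.43%), against 8.16% of all, and 172 (8.88%) were found in neither, against 9.23% of all. Members found in both had a median width of 411 bp and a median score of 30.2. Members found in neither had a median width of 160 bp and a median score of 5.06, and none of them was wider than 398 bp or scored above 13.41. Seen from the replicate lists, 57.7% of the 1720 replicate 1 peaks of the stretch overlapped a replicate 2 peak (51.7% in the rest of the genome). Of the 1504 replicate 2 peaks, 78.5% overlapped a replicate 1 peak (73.6% in the rest of the genome). These directions are views of the same overlap, and a denser list meets the overlap rule more often by number alone.

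Support followed width and score in the stretch as in the rest of the genome. A wider peak meets the rule of 1 bp more often by its length alone, and the series-level score may itself draw on both replicates. How much of the rise this gives was not tested. Of members 146 to 199 bp wide, 8.51% were found in both replicates (interval 6.40 to 11.2%), and 7.36% in the rest of the genome. For 200 to 299 bp the shares were 46.0% in the stretch (interval 41.9 to 50.1%) and 40.3% in the rest. For 300 to 499 bp they were 62.8% and 57.2%, and for 500 to 999 bp 80.9% and 78.0%, in the stretch and in the rest. Of members of 1 kb or more, 93.6% were found in both in the stretch (interval 88.9 to 96.4%) and 94.1% in the rest. By score, 91.6% of members in the top quartile of the whole list were found in both in the stretch (interval 89.0 to 93.7%) and 85.8% in the rest. In the bottom quartile the shares were 7.06% in the stretch (interval 5.02 to 9.85%) and 7.58% in the rest.

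**Figure D5:**
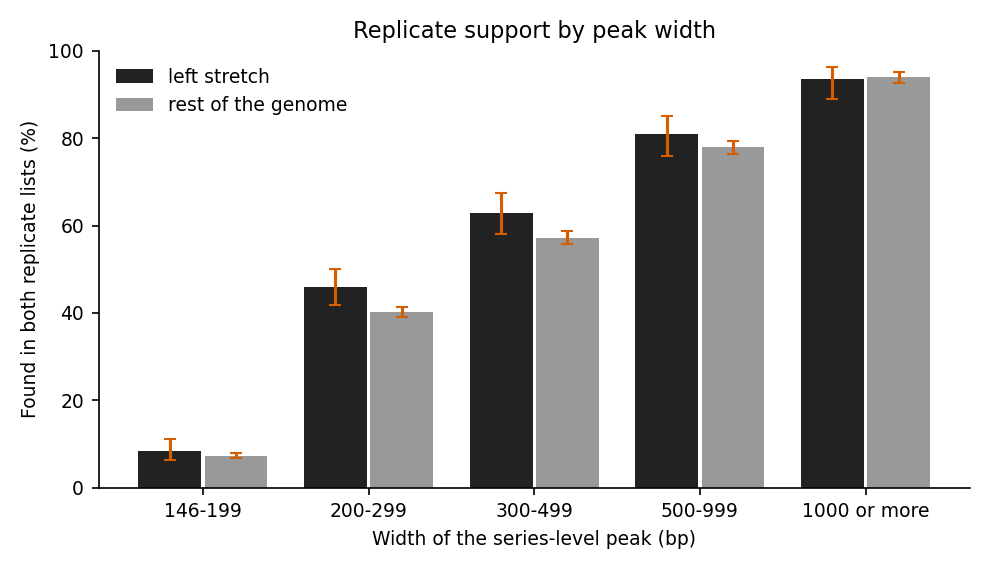
Share of peaks (%) that overlapped a peak of each replicate list, by peak width in bp, in the stretch (dark bars) and in the rest of the genome (grey bars), with Wilson 95% intervals that cover counting error only. Support climbed with width in both, from 8.51% of the narrowest to 93.6% of the widest class in the stretch. Any overlap counted, so a wider peak meets the rule more often by its length alone.

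Support also differed along the stretch. In the middle block 761 of 1506 members (50.5%) were found in both replicates, in the inner zone 151 of 324 (46.6%), and in the outer zone 33 of 108 (30.6%). The outermost 2 windows were lowest, with 4 of 29 members found in both up to 400000 and 4 of 20 from 400001 to 500000. The 3 highest-scoring members missing from a replicate were all found in replicate 1 only. They lay at 654826 to 655043 in the outer zone (score 57.1), and at 3358837 to 3359069 (score 53.78) and 3294648 to 3294877 (score 48.6) in the middle block, with widths of 218, 233 and 230 bp. These 3 were chosen after their values were seen. In the other direction, 180 replicate 2 peaks of the stretch had no series-level peak, with a highest score of 32.03, and 19 replicate 1 peaks had none, with a highest score of 6.57.

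Peaks inside a domain were wider than those at its edges, with similar scores. In the 113 domains of 5 or more peaks, the 716 inner peaks had a median width of 328 bp and a median score of 17.1. The 226 peaks at either edge had a median width of 272 bp and a median score of 16.2. The 278 peaks that stood alone were narrower and lower, with a median width of 224 bp and a median score of 11.4. Of these single peaks 36.0% were found in both replicates (interval 30.6 to 41.8%), against 55.7% of inner peaks (52.1 to 59.3%) and 51.8% of edge peaks (45.3 to 58.2%). These intervals cover counting error only. Narrower peaks also meet the overlap rule less often by their length alone, and how much of the difference this gives was not tested. Support of these classes was not computed for the rest of the genome.

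Long gaps without peaks were more frequent for their length outside the middle block. The 61 gaps of 10 kb or more summed to 24.4% of the length of the stretch. Of these, 22 lay in the inner zone, 15 in the outer zone and 24 in the middle block, which is 2.6 Mb long. The block was drawn around dense windows, so its lower frequency of long gaps follows in part by construction. The longest ran from 3879545 to 3947429 (67.9 kb), with no replicate 1 peak and a single replicate 2 peak of score 5.26. The next, from 683357 to 742100 (58.7 kb), had no peak in any list. A gap from 3439954 to 3483609 (43.7 kb) had a single replicate 2 peak of score 10.84 near its left end and none of replicate 1. The gaps from 4136558 to 4162563 (26.0 kb) and from 4051691 to 4076609 (24.9 kb) each had a single replicate 2 peak, with scores of 3.21 and 7.04. Among these 5 gaps, 4 were in the inner zone and 1 in the outer zone. Because no list states its threshold, a gap between peaks does not show absence of HPL-2.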

How the data were processed

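Per the labels' protocols, frozen worms were ground and fixed for 20 min in EGS, then for 10 min in EGS with formaldehyde, and adaptor-ligated DNA was amplified and size-selected. The submitters' processing notes name BWA, with no version, and the build ce10. Per the file headers, coordinates are on WormBase WS220 and peaks are from MACS. Its version, threshold and control, and how the replicates were combined, were not given in the sources used here. The score of each peak is as deposited by the authors, on an unstated scale. Scores served for ranking, filtering and summaries, such as medians, within each list. Where scores of different lists stand side by side, whether they share a scale is not stated.

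Samples were grouped by title. Peaks were assigned to the stretch by midpoint, joined into domains over gaps of up to 1 kb, and called shared at an overlap of 1 bp or more (Python 3.11.15, pandas 2.3.3, scipy 1.17.1). Chromosome lengths were the largest end position in the 3 lists. The code was tested on simulated lists. The stretch and all rules were chosen with earlier results of these data known. Regions named were the 10 widest domains, 5 widest peaks, 5 highest-scoring peaks found in both replicates, 5 longest gaps, the 3 windows of 100 kb with most and with fewest peaks, and the peaks at the borders. Others are named as chosen after their values were seen. Intervals on shares are Wilson 95% intervals. Where the stretch is set against the rest of the genome, no test was made. The only gene table available for this work is on WBcel235, a different build from WS220, and no genome sequence was used here. Genes under the peaks are therefore not reported. Alternatives covered the list, score, overlap, joining gap and borders.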

Additional observations from a re-analysis of the deposited data

How the results depend on the processing

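Of 29 alternatives over 7 results, 13 moved the value by less than the spread used as yardstick (the SD of the replicate lists, a factor of 1.5 for counts, or the Wilson interval for support), 16 moved it further and 0 turned its direction. Only the log2 ratios of density and of the zones could turn direction, because counts, widths, gaps and shares cannot be negative. For the zones, the borders were set after the window counts were seen. The absence of a turned direction is therefore weak evidence of stability. The replicate lists are also 2 of the alternatives, so their SD is a weak yardstick. Relative peak density (log2) in the stretch against that in the rest of the genome (1.04) was 1.15 for peaks scoring at or above the list median and 1.06 to 1.20 with a single replicate list. Domains of 5 kb or more (67) numbered 35 with a joining gap of 500 bp, 42 for the higher-scoring peaks, and 28 to 60 with a single replicate list, the lower number being that of replicate 2 alone. A joining gap of 500 bp splits domains by construction. The median width (270 bp) was 385 bp for the higher-scoring peaks, 411 bp for members found in both replicates and 229 to 272 bp with a single replicate list. The median gap (484 bp) was 952 bp, 1140.5 bp and 536 to 805 bp under the same settings, which leave fewer peaks by construction. Support by both replicates (48.8%) was 32.2% when the overlap had to span 50% of each peak, and 46.5% when the series-level list and both replicate lists were each cut to peaks at or above their own median score, which removes replicate peaks that could give support. The log2 ratio of the middle block to the outer zone (1.42) was 1.70 for the higher-scoring peaks, 1.87 in base pairs and 1.59 to 1.86 with a single replicate list. The ratio to the inner zone (0.98) was 0.74 to 1.19 with a single replicate list. Other causes of these shifts were not tested. The 8 alternatives for the zones were added after seeing the data. The 3 alternatives for genes were not run. No paired analysis was possible because no values of the input libraries were analysed here, and the ChIP libraries alone form 1 group.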
